A study of Mus musculus with 4 samples.

Results

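The receptors for serotonin, acetylcholine, noradrenaline, dopamine and histamine were measured in left hippocampi of wild-type mice. A gene belonged to the set when its symbol carried the stem Htr, Chrm, Chrn, Adra, Adrb, Drd or Hrh followed by its subtype and when a probe set of the expression array had that symbol alone. This gave 41 genes with 71 probe sets, out of 18194 genes and 45101 probe sets on the array. They were 13 serotonin receptors, 3 muscarinic and 15 nicotinic acetylcholine receptor genes, 2 adrenergic, 4 dopamine and 4 histamine receptors. Another 12 genes of these families that the RefSeq table lists are not analysed here. The series has 1 group, the wild type, with samples 11, 13, 15 and 17, which its design text calls biological replicates. The labels name no treatment, age, sex or strain, and the p-values measure the spread between these 4 samples. Total RNA was amplified and labelled with biotin, and each sample was read on 1 array.

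These receptors carry the signals of axons that reach the hippocampus from the brainstem, the septum and the hypothalamus. Most are G protein-coupled receptors: Gq-coupled members activate phospholipase C, Gs-coupled members raise cyclic AMP, and Gi-coupled members lower it and open inwardly rectifying potassium channels. Nicotinic receptors and the serotonin receptors built from Htr3a are instead pentameric ion channels, whose subunits decide how they respond. The cell bodies of most of these axons lie outside the hippocampus.

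All values are log2 intensities, given as mean ± SD over the 4 samples (n = 4) for that probe set of a gene whose mean was highest. Probe sets bind their transcripts unequally well, so no gene is ranked against another. Each gene was instead set against a background limit of 6.88, the interpolated 95th percentile over 48 measured genes known from tissues such as testis, skin and liver. The 90th percentile of the same genes was 6.01, and the means of Lor, Krt10 and Lct, the highest of these genes, were 7.10, 7.44 and 7.84. A gene is called above or under the limit when the limma test of its mean against it had an adjusted p under 0.05. A level under the limit does not show that a transcript was absent. In whole tissue, fewer cells of a type and less RNA per cell cannot be told apart.

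Of the 41 receptor genes, 6 were called above the limit, 34 under it and 1 was undecided. Over the whole array 36.8% of genes were called above and 59.3% under. The genes above were Chrm1, Chrna7, Htr2c, Htr3a, Hrh3 and Adra2c, which make 14.6% of the set and come from 5 of the 6 families. Htr1a was the undecided gene. The median receptor gene lay 2.54 under the limit on the log2 scale (a level minus limit of -2.54), against -0.89 for all genes. With the limit at the 90th percentile 10 of 41 receptor genes were called above, against 47.9% of all genes, and Htr1a, Htr1b, Htr4 and Chrnb2 were the additions. Dopamine receptors had no member above either limit. The plot of all 41 genes by sample shows each level beside both limits.

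**Figure D1:**
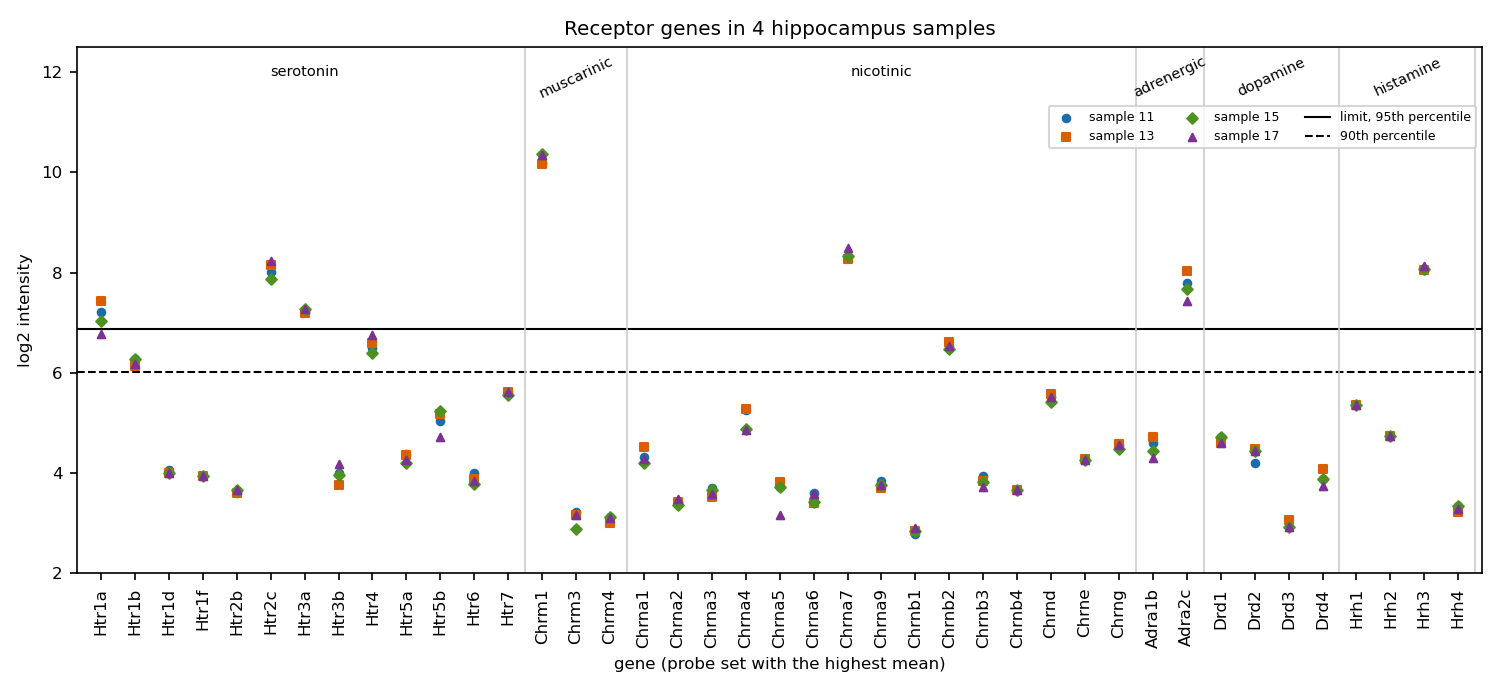
Log2 intensity (vertical axis) of each receptor gene (horizontal axis, grouped by family) in samples 11, 13, 15 and 17, 1 symbol per sample. The solid line is the limit of 6.88 and the dashed line the 90th percentile of 6.01; all 4 symbols of Chrm1, Chrna7, Htr2c, Htr3a, Hrh3 and Adra2c lie above the solid line, and those of Htr1a lie on both sides.

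The upstream sequences of genes above the limit are shown because their CG content differed widely. Of the 41 genes, 32 had an entry in the RefSeq promoter table of GRCm38.p6, among them 4 of the 6 genes above the limit. Shown are the 250 bases before the annotated start, 5′ to 3′, with any match to GGGCGG (a GC box), CACGTG (an E-box), TATAAA or TGACGTCA on either strand in capitals. Adra2c lies at chr5:35278316-35278565 on the + strand, Chrna7 at chr7:63212527-63212776 on the - strand, Hrh3 at chr2:180104408-180104657 on the - strand and Htr2c at chrX:146962263-146962512 on the + strand.
Adra2c: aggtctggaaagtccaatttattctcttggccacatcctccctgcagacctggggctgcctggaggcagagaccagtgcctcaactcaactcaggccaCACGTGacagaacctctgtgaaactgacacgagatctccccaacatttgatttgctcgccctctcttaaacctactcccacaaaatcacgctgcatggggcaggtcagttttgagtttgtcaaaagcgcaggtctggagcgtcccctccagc
Chrna7: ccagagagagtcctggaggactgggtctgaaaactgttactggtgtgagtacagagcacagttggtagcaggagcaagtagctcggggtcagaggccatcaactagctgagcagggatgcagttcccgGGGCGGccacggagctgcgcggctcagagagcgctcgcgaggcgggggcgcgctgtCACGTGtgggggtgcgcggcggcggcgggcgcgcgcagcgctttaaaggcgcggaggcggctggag
Hrh3: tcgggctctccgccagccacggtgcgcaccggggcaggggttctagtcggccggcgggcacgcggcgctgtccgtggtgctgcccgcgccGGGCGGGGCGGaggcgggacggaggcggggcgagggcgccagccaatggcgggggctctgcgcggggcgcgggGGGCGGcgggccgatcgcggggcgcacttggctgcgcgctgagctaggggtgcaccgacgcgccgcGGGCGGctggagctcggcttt
Htr2c: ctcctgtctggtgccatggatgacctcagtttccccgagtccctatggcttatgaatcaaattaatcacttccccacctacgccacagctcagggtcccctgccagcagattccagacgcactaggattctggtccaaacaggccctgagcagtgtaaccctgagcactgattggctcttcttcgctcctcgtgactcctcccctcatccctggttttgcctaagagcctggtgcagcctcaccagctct
Hrh3 had 42 CG dinucleotides in this stretch, Chrna7 25, Adra2c 6 and Htr2c 5. In Hrh3, 2 of the GC boxes overlap by a base. The median was 8.5 for the 32 receptor genes, 17.0 for all 5460 genes called above that had a promoter entry and 8.0 for the 8404 called under. A GC box was present in 13 of the 32 receptor promoters (40.6%), against 49.9% of the 14453 promoters of genes on the array. Of the 32 receptor promoters, 27 belong to genes called under, and all genes called under had a GC box in 40.3%. TATAAA was present in 1 of 32 (3.12%), against 9.02% on the array and 11.3% of genes called under. CACGTG was present in 2 of 32 (6.25%), those of Adra2c and Chrna7, against 7.56% and 6.5%. TGACGTCA was found in 0 of 32 windows, against 2.27% and 1.73%. These are matches of letters and carry no test.

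Among the G protein-coupled receptors for acetylcholine, Chrm1 stood clear of the limit. Chrm1 is the Gq-coupled muscarinic receptor of pyramidal neurons, known for closing the Kv7 potassium channels. Its level was 10.19, 10.16, 10.37 and 10.35 in samples 11, 13, 15 and 17. Samples 15 and 17 were thus the higher pair by a small margin. Its mean of 10.27 ± 0.11 lay 3.39 above the limit (95% interval 3.27 to 3.52, limma adjusted p = 3.43e-07). Its other probe set, which carries a RefSeq mRNA accession, was called under the limit at 4.93 ± 0.19. Chrm3, also Gq-coupled, and Chrm4, Gi-coupled, were under the limit at 3.11 ± 0.15 and 3.09 ± 0.061, each by its only probe set.

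Of the 15 nicotinic subunits, Chrna7 was above the limit and the other 14 were under it. Chrna7 forms channels without other subunits and is known for a high calcium permeability. It stood at 8.31, 8.26, 8.33 and 8.48 in samples 11, 13, 15 and 17, highest in sample 17. The mean of 8.35 ± 0.095 was 1.47 above the limit (interval 1.35 to 1.59, limma adjusted p = 4.64e-06), and its probe set with a RefSeq mRNA accession lay under the limit at 4.16 ± 0.073. Chrnb2, the beta subunit of the main heteromeric receptor of the brain, lay between the 2 percentiles. Its values of 6.53, 6.61, 6.48 and 6.53 gave a mean of 6.54 ± 0.056, a level minus limit of -0.34 (limma adjusted p = 0.000336) and 0.52 above the 90th percentile of 6.01. The other probe sets of Chrnb2 read 4.16 ± 0.053, with a RefSeq mRNA accession, and 3.67 ± 0.12. Chrna4, the usual partner of Chrnb2, was under both percentiles, at 5.27, 5.27, 4.89 and 4.87 in samples 11, 13, 15 and 17. For Chrna4, samples 11 and 13 were higher than samples 15 and 17 without overlap.

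The remaining nicotinic subunits were under the limit as well. The 6 subunits Chrna2, Chrna3, Chrna5, Chrna6, Chrnb3 and Chrnb4 had means between 3.42 and 3.83. Chrna5 had the largest SD of all 41 receptor genes, 0.30, through its value of 3.16 in sample 17 beside 3.72, 3.82 and 3.72 in samples 11, 13 and 15. The 5 subunits of the muscle receptor, Chrna1, Chrnb1, Chrnd, Chrne and Chrng, had means between 2.84 and 5.51, and Chrna9, known from hair cells of the ear, had a mean of 3.77 ± 0.056. Of the markers of skeletal muscle, 0 of 8 were called above the limit. Among these, Myl1, Tnnt3, Actn3 and Myh4 also belong to the background genes that set the limit, so their result was not independent of it.

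Neighbouring receptor genes were compared as well, since 5 pairs lie side by side among the protein-coding genes of the RefSeq table. Chrna5, Chrna3 and Chrnb4 follow each other, with means of 3.60, 3.62 and 3.66, all called under the limit. Chrnd and Chrng, and Chrnb3 and Chrna6, were under it too. Htr3a and Htr3b were the pair whose calls parted.

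Serotonin receptors had 2 of 13 genes above the limit, Htr2c and Htr3a. Htr2c, a Gq-coupled receptor known from neurons and above all from the choroid plexus, read 8.01, 8.15, 7.88 and 8.23 in samples 11, 13, 15 and 17. Its mean was 8.07 ± 0.15, or 1.19 above the limit (interval 1.01 to 1.38, limma adjusted p = 5.82e-05), and the probe set with a RefSeq mRNA accession read 2.55 ± 0.099. Choroid plexus markers were read beside Htr2c: 0 of 9 were called above the limit, and their mean level ran from 4.14 to 4.72 over the samples. Ttr, the thyroxine carrier and chief marker, stood at 7.36, 9.84, 6.86 and 6.54 in samples 11, 13, 15 and 17. Its mean of 7.65 ± 1.50 lay 0.77 above the limit, and the call was undecided (limma adjusted p = 0.294). Htr2c was highest in sample 17, followed by sample 13. The part of choroid plexus in the level of Htr2c was not tested.

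Htr3a, the ion channel subunit known from a class of inhibitory interneurons, was at 7.21, 7.20, 7.27 and 7.27 in samples 11, 13, 15 and 17. Its samples hardly differed. The mean of 7.24 ± 0.039 lay 0.36 above the limit (interval 0.30 to 0.43, limma adjusted p = 9.61e-05), but under the highest background gene, and it rests on a single probe set. Of the interneuron markers, 10 of 12 were above the limit, with Gad1 at 10.24 ± 0.037. Htr3b, which joins Htr3a in heteromeric channels, was under the limit at 3.98 ± 0.17.

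Htr1a, the Gi-coupled receptor that opens potassium channels in hippocampal neurons, straddled the limit. It stood at 7.21, 7.44, 7.04 and 6.78 in samples 11, 13, 15 and 17, highest in sample 13 and lowest in sample 17, a 1.58-fold range. The mean of 7.12 ± 0.28 was 0.24 above the limit, with an interval from -0.086 to 0.57 (limma adjusted p = 0.114). Without sample 17 the difference was 0.42 and the call was made (limma adjusted p = 0.0451). Its probe set with a RefSeq mRNA accession was also lowest in sample 17, with 3.93, 3.73, 3.73 and 3.28.

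The other serotonin receptors were under the limit. Htr1b, a Gi-coupled receptor of axon terminals, had a mean of 6.22 ± 0.076 and Htr4, a Gs-coupled receptor, one of 6.56 ± 0.15, both above the 90th percentile. Their other probe sets were under that percentile, at 5.40 ± 0.20 for Htr1b and 3.13 ± 0.087 for Htr4. The call for Htr4 was lost without sample 13 (limma adjusted p = 0.0539) and without sample 15 (limma adjusted p = 0.0747). Htr7, Gs-coupled, stood at 5.60 ± 0.028. Htr5b stood at 5.05, 5.18, 5.25 and 4.71 in samples 11, 13, 15 and 17, lowest in sample 17, with an SD of 0.24. Htr1d, Htr1f, Htr2b, Htr5a and Htr6 had means of 4.02, 3.94, 3.63, 4.30 and 3.88.

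Of the adrenergic receptors measured, Adra2c was above the limit and Adra1b under it. Adra2c, a Gi-coupled receptor that restrains transmitter release, read 7.79, 8.02, 7.67 and 7.44 in samples 11, 13, 15 and 17, a 1.50-fold range with sample 17 lowest. The mean of 7.73 ± 0.24 lay 0.86 above the limit (interval 0.57 to 1.14, limma adjusted p = 0.00117), and under the highest background gene by its mean. Its 4 probe sets disagreed: a further one stood at 6.58, 6.58, 6.55 and 6.58 in samples 11, 13, 15 and 17 and so had no such range, and the remaining pair had means of 3.10 and 2.85. Adra1b, Gq-coupled, stood at 4.52 ± 0.18.

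Hrh3 was the histamine receptor above the limit. It is the Gi-coupled receptor that acts on axon terminals, including those that release histamine. It stood at 8.05, 8.05, 8.07 and 8.12 in samples 11, 13, 15 and 17, the smallest SD among the genes above the limit, though the range of Htr3a was slightly narrower. The mean of 8.07 ± 0.035 lay 1.19 above the limit (interval 1.14 to 1.25, limma adjusted p = 7.29e-07) and rests on a single probe set. Hrh1, Gq-coupled, and Hrh2, Gs-coupled, stood at 5.36 and 4.75 and hardly varied; for Hrh1 the same value was listed in all 4 samples. Hrh4, known from immune cells, had a mean of 3.30 ± 0.062. Of the mast cell markers 1 of 8 was above the limit, Kit, which neurons also express.

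All 4 dopamine receptors measured were under the limit. Drd1, Gs-coupled, had a mean of 4.66 ± 0.063, Drd2 4.39 ± 0.12, Drd3 2.96 ± 0.072 and Drd4 3.90 ± 0.14, the last 3 being Gi-coupled. The second probe set of Drd1 read 4.48 ± 0.16 and that of Drd4 2.91 ± 0.049. Of the other striatal markers, Ppp1r1b, Rgs9, Penk and Tac1 were above the limit at 7.33 ± 0.11, 7.42 ± 0.13, 7.97 ± 0.25 and 8.19 ± 0.063, and Pde10a was under it at 6.56 ± 0.060.

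The probe sets of a receptor gene often told different things. Of 22 receptor genes with 2 or more probe sets, 4 had some called above and some under, which were Adra2c, Chrm1, Chrna7 and Htr2c. Those are all the genes called above the limit that had more than 1 probe set. The same holds for 80.4% of all 4602 such genes called above and for 41.0% of all 9012 genes with 2 or more probe sets. The gap between the highest and the lowest probe set had a median of 5.11 for these 4 genes and 3.80 for all such genes called above. Of 12 receptor genes read both by a probe set with a RefSeq mRNA accession and by one with another accession, the other accession gave the higher level in 8 (66.7%), against 46.5% of 1966 genes on the array. With a gene read by the median of its probe sets, 3 receptor genes were above, Chrm1, Hrh3 and Htr3a, against 22.8% of all genes. With the lowest probe set, 2 were above, Hrh3 and Htr3a, against 20.2%. Hrh3 and Htr3a each have a single probe set, so neither setting could change the level read for them. Against the highest background gene, 4 receptor genes were above, Chrm1, Chrna7, Hrh3 and Htr2c, and 22.6% of all genes. With dim probe sets left out, 16 of the 41 receptor genes were kept and 6 of these were above, against 56.8% of all genes kept. The probe sets left out were all dim, so the unchanged count is no sign of stability.

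**Figure D2:**
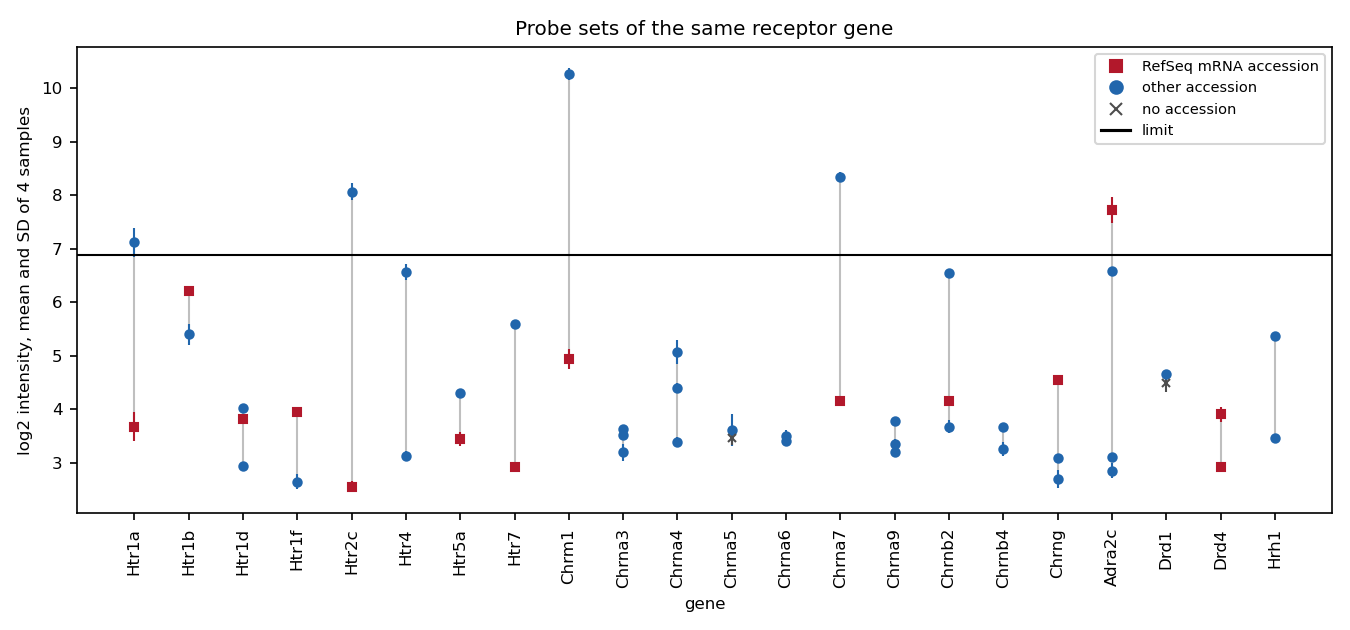
Mean log2 intensity (vertical axis; bars are the SD of 4 samples) of every probe set of the 22 receptor genes that have 2 or more (horizontal axis), by the kind of accession the probe set carries. Chrm1, Chrna7 and Htr2c each have 1 probe set above the line of 6.88 and 1 more than 4 units lower, and for Adra2c the highest one carries a RefSeq mRNA accession.

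No receptor gene was called as differing between the samples. The limma test of spread covered the 7 receptor probe sets above the limit by their mean and called 0, as it called 0 of 10854 probe sets on the array (0.0%). At an unadjusted p under 0.05 it gave 0 of the 7 and 338 of all (3.11%). The smallest unadjusted p among the receptors was 0.0839 for Htr1a, followed by 0.0938 for Adra2c, and the smallest adjusted p was 0.894. Ttr, which ran from 6.54 to 9.84 over the samples, was among the probe sets not called. The 0 calls therefore say little about the receptors. A p that misses the threshold does not show that the samples were alike. In 9 of the 38 receptor genes with any spread (23.7%), 1 sample stood far from the other 3, against 24.5% of all such genes. The median SD of the 6 genes above the limit was 0.10, against 0.080 for all genes called above.

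The samples did not take the same order in every receptor. Sample 17 was highest in 3 of the 6 genes above the limit (38.7% of all genes called above), namely Chrna7, Hrh3 and Htr2c. Sample 13 was lowest in 3 of them, Chrm1, Chrna7 and Htr3a (18.4% of all genes called above). Sample 11 alone was lowest in 0 of the 6, against 47.9% of all genes called above. Ties are left out of these counts. In Hrh3, samples 11 and 13 shared the lowest value, and in Htr3a samples 15 and 17 shared the highest. Averaged over the 6 genes, the deviation from a gene's own mean was -0.027, 0.020, -0.021 and 0.028 in samples 11, 13, 15 and 17. Over all genes called above it was -0.050, -0.0016, 0.020 and 0.032 in the same samples. Adra2c and Htr1a ran against Chrna7 and Hrh3 in sample 17, as the plot of deviations shows. Sample 13, in which both genes were highest, also had higher levels of some markers of other cells: the mean of 7 oligodendrocyte markers was 9.15 there and 8.48 to 8.67 in the other samples. Ttr and the pituitary hormone gene Gh were highest in it too, Gh at 6.55 beside 4.80, 4.55 and 4.58 in samples 11, 15 and 17. The part of these cells in the values of Adra2c and Htr1a was not tested.

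The 5′ ends of control transcripts gave less signal in samples 15 and 17: the 3′ minus 5′ difference of Gapdh was 0.62, 0.62, 2.64 and 3.79 in samples 11, 13, 15 and 17, and that of beta-actin 1.10, 1.25, 1.93 and 2.33. Adra2c, Htr1a and Chrna4 were lower in samples 15 and 17 than in samples 11 and 13. Chrm1, Chrna7, Hrh3 and Htr3a were higher in samples 15 and 17, and Htr2c did not split in this way. The part of the 3′ minus 5′ difference in the values of these genes was not tested. With samples 15 and 17 left out, the limit was 6.71, with 6 receptor genes called above it and 31 under it. Chrnb2, Htr1b and Htr4 became undecided (limma adjusted p = 0.129, 0.0561 and 0.132). The share of all genes called is not given for this setting.

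**Figure D3:**
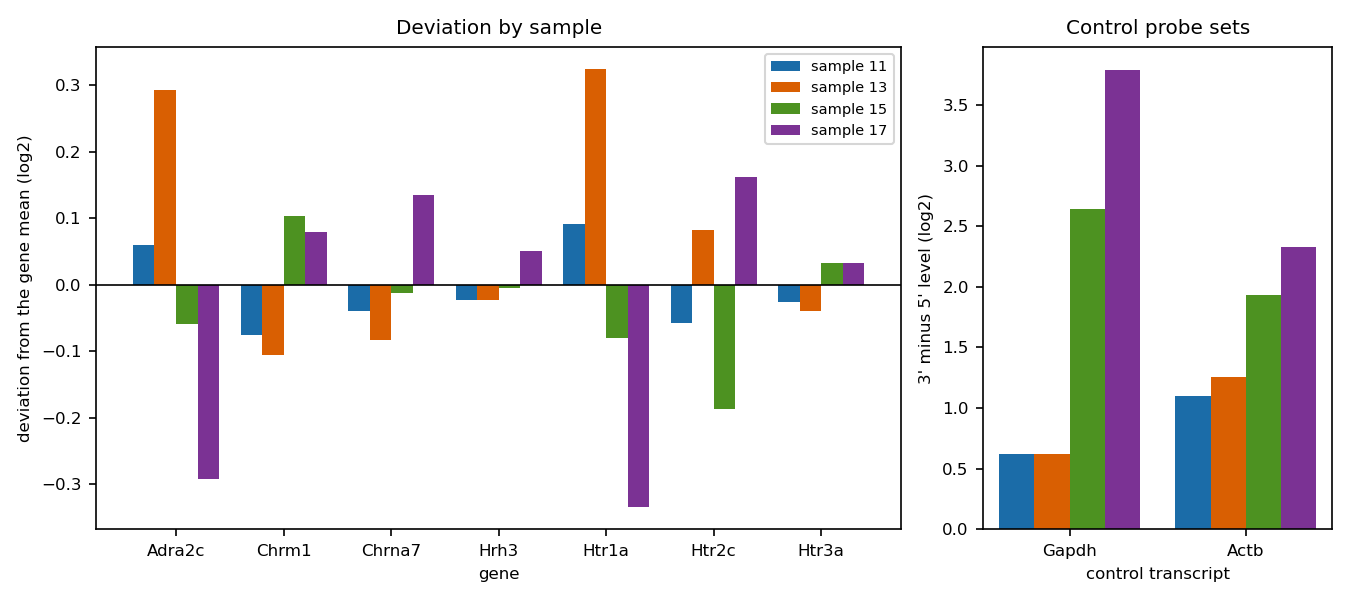
Left, deviation of each sample from the gene's own mean (log2, vertical axis) for the 6 receptor genes above the limit and Htr1a, 1 bar per sample. Right, 3′ minus 5′ level of Gapdh and beta-actin (Actb) in the same samples. Adra2c and Htr1a are highest in sample 13 and lowest in sample 17, where the Gapdh difference is 3.79. Chrna7, Hrh3 and Htr2c are highest in sample 17.

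Genes that make the transmitters were under the limit nearly throughout. Those that break them down and those that act behind the receptors were mostly above it, except in the phospholipase C arm (3 of 8). Of 17 measured genes of transmitter synthesis and transport, 1 was above the limit, 14 were under it and 2 were undecided. The enzyme of catecholamine synthesis Th stood at 4.61 ± 0.15 and Ddc, which makes dopamine and serotonin, at 5.32 ± 0.11. Dbh, which makes noradrenaline, was undecided at 6.86 ± 0.16. The gene above was Slc29a4, a low-affinity monoamine transporter, at 8.11 ± 0.044. Of the breakdown enzymes, 3 of 5 were above the limit: the monoamine oxidases Maoa and Maob at 7.65 ± 0.058 and 7.38 ± 0.27, and Ache, which splits acetylcholine, at 7.58 ± 0.11.

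Among the G protein alpha subunits, 9 of 10 were above the limit, with Gnas of the Gs class at 12.37 ± 0.023, Gnal at 8.44 ± 0.047 and Gnai1 of the Gi class at 10.21 ± 0.066. The adenylyl cyclases, which make cyclic AMP, were at 6 of 9, with Adcy1 at 11.41 ± 0.040, Adcy2 at 9.50 ± 0.11 and Adcy3 at 8.28 ± 0.017. In the phospholipase C arm 3 of 8 were above, among them Plcb1 at 10.22 ± 0.12, with Plcb2 and Plcb3 under the limit at 5.19 ± 0.17 and 6.09 ± 0.11. Receptor kinases and arrestins, which end a receptor's signal, were at 4 of 6, with Grk3 above the limit at 9.66 ± 0.12 and Grk4 and Grk5 under it at 3.61 ± 0.050 and 4.98 ± 0.049. The potassium channels gated by Gi-coupled receptors or closed through Chrm1 were at 4 of 6, with Kcnj3 above the limit at 8.26 ± 0.040 and Kcnj5 and Kcnj6 under it at 3.60 ± 0.0079 and 6.35 ± 0.17. The regulators of G protein signalling, which speed the return to rest, were at 10 of 12, with Rgs2 at 7.98 ± 0.053, Rgs4 at 9.51 ± 0.11 and Rgs5 at 9.20 ± 0.15.

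Of the chaperones and Ly6 proteins that assemble or modulate nicotinic receptors, 6 of 10 were above the limit. The chaperone Tmem35a stood at 8.16 ± 0.15 and the Ly6 modulator Lynx1 at 10.11 ± 0.072, while the chaperone Ric3 was under the limit at 5.36 ± 0.12. In all 9 lists together, 46 of 83 measured genes were above the limit and 35 under it. These counts are set beside the 36.8% of all genes and carry no test of a list.

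**Figure D4:**
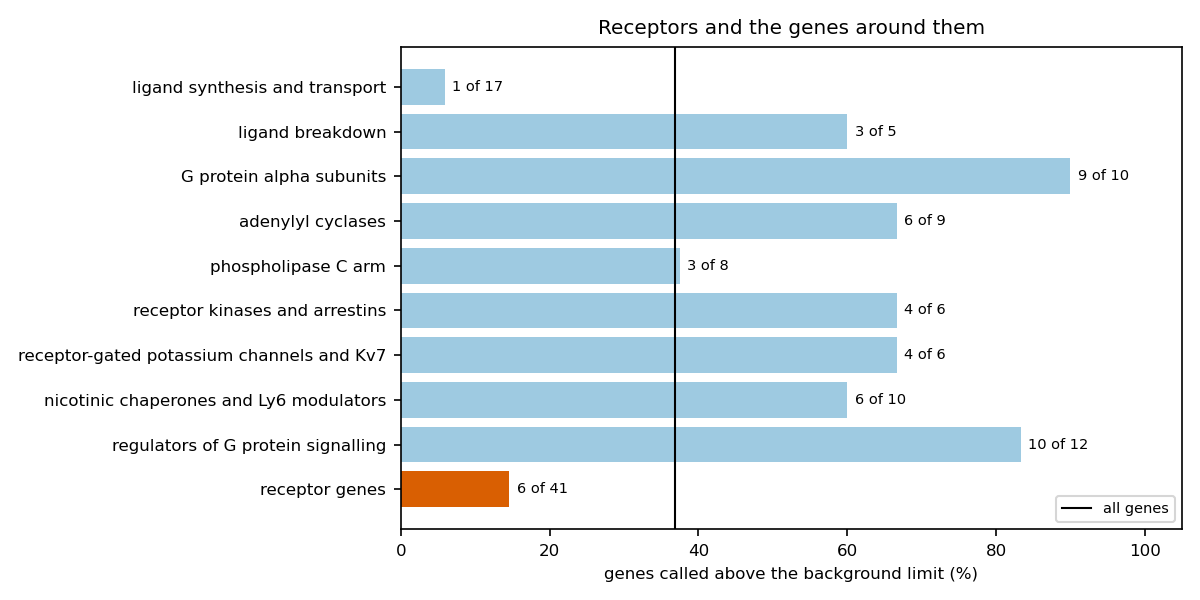
Share of measured genes called above the limit (horizontal axis, percent) for 9 lists of genes around the receptors (blue) and for the 41 receptor genes (orange), with the counts beside the bars. The vertical line marks the 36.8% of all genes; the receptor genes at 14.6% and the genes of transmitter synthesis and transport at 5.88% lie left of it.

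Of the listed markers of pyramidal and granule neurons, 9 of 10 were above the limit, among them Camk2a at 11.78 ± 0.040. Prox1 was under the limit at 5.76 ± 0.073. Astrocyte markers were at 7 of 8, microglial at 6 of 8 and oligodendrocyte at 4 of 7 with 3 undecided. Vessel markers were fewer, with endothelium at 3 of 7 and mural cells at 3 of 8. Of cells that could come from elsewhere, 1 of 6 habenula markers, 1 of 9 hypothalamic and pituitary markers and 0 of 8 markers of monoamine and cholinergic cell bodies were above it, as were 3 of 9 thalamic and 4 of 7 striatal ones, some of which hippocampal cells also express. The median of an array lay between 4.67 and 4.71, and precision is limited by there being 4 arrays.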

How the data were processed

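RNA of 4 samples of 1 group was read on 1 array each. Each probe set has a deposited log2 intensity. The submitters' processing notes name RMA and no version or settings. RMA corrects the background and gives the arrays a common distribution, so a shift shared by most genes would be lost. Among the 41 receptor genes 25 hold an equal value in 2 or more samples (compared to 6 decimals), as do 48.2% of all genes, which lowers SDs.

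The probe table gave 34958 probe sets 1 symbol, 932 several and 9211 none. Symbols were updated by Entrez identifier through the RefSeq table of GRCm38.p6, which held 34754 of them, and neighbouring genes were taken from the order of starts in that table. The receptors and lists were chosen with earlier results of these data known. The background list holds 54 genes, of which 48 were measured.

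With limma 3.58.1 in R 4.3.3, an intercept was fitted to the level minus the limit over all 45101 probe sets (eBayes, trend and robust), two-sided, with Benjamini-Hochberg adjustment over them at 0.05. The limit itself was taken as known. Choosing the highest probe set of a gene favours calls above the limit. Spread was tested as residual over prior variance, with 3 residual and 2.29 prior degrees of freedom. Both tests were tried on simulated data. For the spread test, probe sets with no planted change were given equal true variances there. That differs from these data, so the trial does not show the power of that test here. Named are all receptor genes, with each sample's value for those above the limit and the 5 largest SDs, and the first 3 measured genes of each pathway list. Cell type lists are given by counts and, departing from the rule for brevity, by fewer genes; further genes were chosen after their values were seen. Alternatives covered the limit, the probe set, normalization, the prior, the threshold, a filter and samples left out. Python 3.11.15 and matplotlib 3.10.9 were used for counts and plots.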

Additional observations from a re-analysis of the deposited data

Results flagged for a closer look

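In 9 of the 38 receptor genes with any spread (23.7%), a sample stood far from the other 3, against 24.5% of all 17708 such genes. Chance alone gives such a gap in about 1 in 20 groups of independent values, and equal values make gaps look large. All 9 genes were under the background limit. Sample 17 stood apart in Chrna5 at 3.16, where the median of the others was 3.72. Sample 13 stood apart in Chrm4 at 3.004, Chrne at 4.28, Drd3 at 3.07 and Hrh2 at 4.74, where the medians of the others were 3.13, 4.26, 2.93 and 4.75. Sample 15 stood apart in Chrng at 4.49 and Htr7 at 5.56, against 4.57 and 5.61. Sample 11 stood apart in Drd2 at 4.21 and Htr1d at 4.07, against 4.43 and 4.005. In Chrne, Drd3, Hrh2 and Htr1d the other 3 samples held the same value.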

How the results depend on the processing

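Of the 41 receptor genes, 6 were above the limit in the setting used. That number was 10 with the 90th percentile (6.01) as limit, 4 with the highest background gene (7.84), 3 with the median of a gene's probe sets and 2 with the lowest probe set (limit 6.30). It was 6 with quantile normalization again, median centring, another prior and a threshold of 0.01, and 6 to 7 with a sample left out. The limit ran from 6.81 to 6.96 with a sample left out and was 6.71 without samples 15 and 17, an alternative chosen after seeing the data. The count over all genes, 6697, was 4113 with the highest background gene, 4150 with the median and 3667 with the lowest probe set. That count was 8706 with the 90th percentile and 6719 with quantile normalization again. It is not given for median centring, the other prior, the stricter threshold or samples left out. The level minus limit changed sign at the 90th percentile for Chrnb2 (0.52), Htr1b (0.20) and Htr4 (0.55). Against the highest background gene it did so for Adra2c (-0.11), Htr1a (-0.73) and Htr3a (-0.60). With the median of probe sets it did so for Adra2c (-1.97), Chrna7 (-0.56), Htr1a (-1.42) and Htr2c (-1.50), and with the lowest probe set for Adra2c (-3.45), Chrm1 (-1.37), Chrna7 (-2.14), Htr1a (-2.63) and Htr2c (-3.75). The mean deviation of the 6 genes in sample 11 was 0.0069 with the median of probe sets and 0.0063 with quantile normalization, and in sample 13 it was -0.0079 with the median, so these small deviations have no settled sign. The cause of these changes was not tested beyond the settings themselves. The second background list named among the alternatives was not run, so how far the limit depends on the listed genes is not known; the calls of Chrnb2, Htr1a, Htr1b and Htr4 turn on a lower limit. Signal over background limits what can be said of the 34 genes under the limit. No paired analysis was possible because the study has 1 group.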

Other observations

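The order of samples seen in Adra2c and Htr1a, from sample 13 through 11 and 15 to 17, was also that of Adra1b and Chrna4, which lie under the limit. It was found in 4 of 41 receptor genes (9.76%), against 387 of 18194 genes (2.13%) and 140 of the 6697 called above (2.09%). The order was chosen after the values of Adra2c and Htr1a were seen. Both genes are counted among the 4, which raises that share, so the order carries no test. Some cell type markers held this order too, of hippocampal cells as well as of other tissue. The interneuron marker Cck, called above the limit, stood at 10.87, 10.81, 10.77 and 10.69 in samples 13, 11, 15 and 17. The astrocyte marker Sox9, called under the limit, and the undecided mural cell marker Cspg4 held it as well. How many of all listed markers did so was not counted. Ttr stood at 9.84, 7.36, 6.86 and 6.54 in samples 13, 11, 15 and 17. In the same samples the choroid plexus marker Clic6 stood at 5.47, 5.39, 5.31 and 5.10. The thalamic marker Slc17a6 stood at 6.04, 5.59, 5.54 and 4.98. Clic6 and Slc17a6 were called under the limit, and the other markers in the choroid plexus and thalamic lists did not hold the order. In Adra1b the values were 4.61, 4.72, 4.44 and 4.30 in samples 11, 13, 15 and 17.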
